A study of Gallus gallus with 4 samples.

Results

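Chromosome 4 of the chicken carried 443 of the 10843 condensin peaks in a pair of deposited lists: 241 of 6474 for the subunit SMC2 and 202 of 4369 for the subunit CAP-H. These are all the rows of either list that the authors placed on chromosome 4 itself. A further 19 SMC2 and 5 CAP-H peaks on unlocalised pieces of this chromosome were not included. The cells were DT40, a chicken B cell lymphoma line. Knockout cells were rescued with a transgene for SMC2 or CAP-H carrying an SBP tag, which binds streptavidin, and 2 ng/ml doxycycline kept the untagged protein off. All cells were held in mitosis with 500 ng/ml nocodazole and fixed with 1% formaldehyde, and the DNA bound to the tagged subunit was taken up on streptavidin beads and sequenced in single reads of 50 bp. Each subunit had 1 pull-down library and 1 input library; only the peak lists of the pull-downs were used here, and no sequencing depth is known. With 1 library per subunit there is no replicate check and no test. Every interval below is at 95% and covers counting error only.

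Condensin is a ring-shaped complex that binds chromosomes in mitosis, extrudes loops of DNA and so compacts the chromatids before they separate. SMC2 is one of its ATPase arms and is shared by condensin I and condensin II, whereas CAP-H is the kleisin that closes the ring in condensin I alone. A site in the SMC2 list can thus belong to either complex. Bird karyotypes hold a few large macrochromosomes and many small microchromosomes that are rich in genes and in GC. The short arm of chicken chromosome 4 was once a separate microchromosome, which joined an ancestral macrochromosome in the lineage of the chicken, and it corresponds to a part of the long arm of the human X chromosome.

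Peaks were crowded at the free end of the short arm and sparse over most of the chromosome. The highest coordinate of any peak, 89992095 in build galGal4, was taken as the length of the chromosome. Over this length the SMC2 density was 2.68 peaks per Mb (2.35 to 3.04), and that of CAP-H was 2.24 (1.95 to 2.58). The first 5 Mb, which make up 5.56% of that length, held 106 SMC2 peaks, or 44.0% (37.6 to 50.5) of the list. The same 5 Mb held 87 CAP-H peaks, or 43.1% (36.1 to 50.2). Without them the densities fell to 1.59 per Mb for SMC2 and 1.35 for CAP-H. The limit of 5 Mb, like the other stretches of either arm described below, was chosen after the positions were seen.

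**Figure D1:**
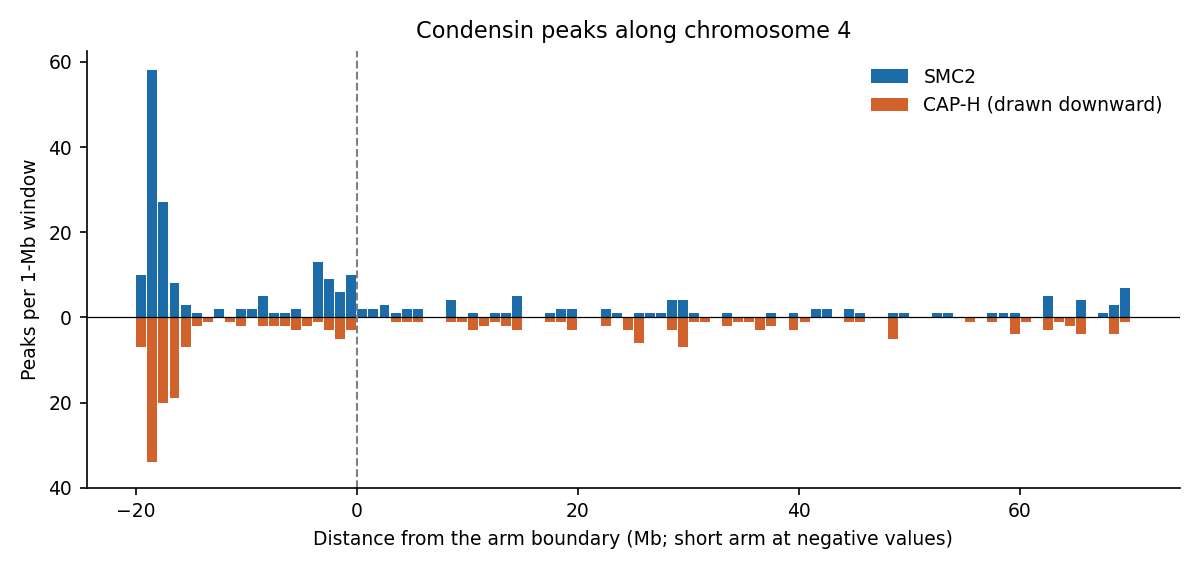
Number of peaks in each 1-Mb window of chromosome 4, with SMC2 upward and CAP-H downward, against the distance of the window from the arm boundary (dashed line). The window with most peaks, near the free end of the short arm, holds 58 SMC2 and 34 CAP-H peaks, and no window beyond the boundary holds more than 7 of either.

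The richest window of 1 Mb in either list ran from 1000001 to 2000000 and held 58 peaks of SMC2 and 34 of CAP-H. The next in both lists, from 2000001 to 3000000, held 27 SMC2 and 20 CAP-H peaks. Behind these the lists parted. The window from 3000001 to 4000000 came next for CAP-H, with 19 peaks, but held 8 SMC2 peaks. The next for SMC2 was from 16000001 to 17000000, with 13 SMC2 peaks and 1 CAP-H peak. The window at the very end, from the first base to 1000000, held 10 SMC2 and 7 CAP-H peaks, fewer than its inner neighbours. The other windows among the 5 richest were 19000001 to 20000000 for SMC2, where it had 10 and CAP-H 3, and for CAP-H a tie at 7 that also took in 4000001 to 5000000 and, on the far side of the boundary, 49000001 to 50000000. At a finer scale, the 100 kb with most SMC2 peaks ran from 1800001 to 1900000 (12 SMC2 and 6 CAP-H peaks), next to 1700001 to 1800000 with 11 and 7. The latter tied for most CAP-H peaks with 3500001 to 3600000, which had 3 SMC2 and 7 CAP-H peaks.

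Across the 90 windows of 1 Mb, the counts of the lists went together, with a Pearson r of 0.872 and a Spearman rho of 0.48. Much of this rested on the first windows: over the 85 windows beyond the first 5 Mb, r was 0.34 and rho 0.39. These values describe 1 library each, and windows along a chromosome are not independent.

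The short arm was set against the rest of the chromosome. No file gives the position of the centromere, so a boundary of 20 Mb, approximate and from general knowledge of the chicken karyotype, was used, with 18 and 22 Mb as alternatives. The short arm had 160 SMC2 peaks, or 8.0 per Mb (6.81 to 9.34), and the rest had 81, or 1.16 per Mb (0.919 to 1.44). The SMC2 density was thus 6.91 times as high on the short arm (5.26 to 9.15). For CAP-H there were 116 peaks on the short arm, or 5.80 per Mb (4.79 to 6.96), and 86 on the rest, or 1.23 per Mb (0.983 to 1.52), a ratio of 4.72 (3.54 to 6.31). Peaks covered 1.07% of the short arm and 0.120% of the rest in the SMC2 list, and 1.17% and 0.191% in the CAP-H list. With the boundary at 18 or 22 Mb the ratios were 5.94 and 6.58 for SMC2 and 4.60 and 4.17 for CAP-H.

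In density the short arm was close to microchromosomes of about its own length. Chromosomes 11 to 13 together had 7.19 peaks per Mb for SMC2 and 5.51 for CAP-H. The short arm had 1.11 times their SMC2 density (0.921 to 1.34) and 1.05 times their CAP-H density (0.844 to 1.31), so no difference was detectable with these counts, although the upper bounds of both intervals lie above 1.3. As a whole, chromosome 4 had 1.70 times the SMC2 density of chromosome 3 (1.39 to 2.08) and 0.746 times that of chromosome 5 (0.618 to 0.901). The rest of chromosome 4, without its short arm, was also set against these whole chromosomes. Its SMC2 density was 0.735 times that of chromosome 3 (0.557 to 0.961) and 0.322 times that of chromosome 5 (0.246 to 0.418). For CAP-H the corresponding ratios were 0.803 (0.612 to 1.05), an interval that holds 1, and 0.423 (0.323 to 0.551). Chromosomes 3 and 5 keep their own rich windows in these ratios. Outside its 5 richest windows of 1 Mb, chromosome 3 had 1.13 SMC2 peaks per Mb and chromosome 5 had 2.07. The 1.16 on the rest of chromosome 4 keeps all its windows, so it is not a like measure. Cut in the same way, the whole of chromosome 4 had 1.45. For CAP-H the values outside the 5 richest windows were 1.11 on chromosome 3, 2.22 on chromosome 5 and 1.35 on chromosome 4. How many copies of each chromosome the cells carried is unknown here, and no density takes it into account.

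**Figure D2:**
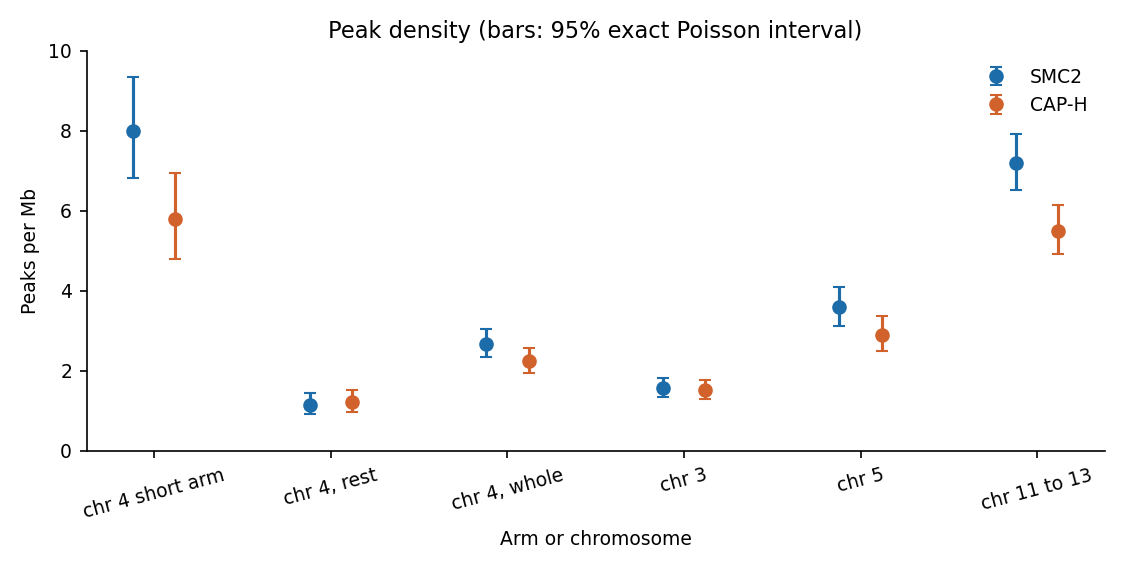
Peaks per Mb on the short arm of chromosome 4, on its rest, on the whole chromosome and on chromosomes 3, 5 and 11 to 13; points are counts over length and bars are 95% exact Poisson intervals. The short arm lies at 8.0 peaks per Mb for SMC2 and 5.80 for CAP-H, near chromosomes 11 to 13 at 7.19 and 5.51, and the rest lies at 1.16 and 1.23.

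The excess of the short arm was not spread along it. For SMC2 it lay in the first 5 Mb and, to a lesser extent, in the last 4 Mb before the boundary. For CAP-H it lay mostly in the first 5 Mb. Leaving out those last 4 Mb alone gave a ratio of short arm to rest of 6.59 (4.93 to 8.84) for SMC2, against 6.91 with them. For CAP-H it gave 5.29 (3.94 to 7.12), against 4.72. The first 5 Mb had 21.2 peaks per Mb for SMC2 and 17.4 for CAP-H. From 5 to 16 Mb there were 16 SMC2 and 17 CAP-H peaks, or 1.45 and 1.55 per Mb, close to the values beyond the boundary. From 16 to 20 Mb there were 38 SMC2 peaks, or 9.50 per Mb (6.72 to 13.04), and 12 CAP-H peaks, or 3.0 per Mb (1.55 to 5.24). Without the first 5 Mb the ratio of short arm to rest fell from 6.91 to 3.11 (2.16 to 4.44) for SMC2 and from 4.72 to 1.57 (0.996 to 2.42) for CAP-H. Without the stretch from 16 to 20 Mb as well, it was 1.26 for both lists (0.686 to 2.17 for SMC2 and 0.701 to 2.13 for CAP-H). Both stretches were chosen as rich ones and nothing was taken from the rest, so these falls were fixed in advance and test nothing. Without the richest 1-Mb window of each arm, the ratio was 5.01 (3.67 to 6.85) for SMC2 and 3.77 (2.73 to 5.20) for CAP-H.

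Crowding into a few windows was also found on microchromosomes, though unevenly among them. The 2 richest windows of the short arm held 53.1% of its SMC2 peaks and 46.6% of its CAP-H peaks. On chromosome 11 they held 50.6% and 45.2%. On chromosomes 12 and 13 they held 31.1% and 33.6% of SMC2 peaks, and 36.1% and 31.4% of CAP-H peaks. The median window of the short arm had 2.5 SMC2 and 2.0 CAP-H peaks, and that of chromosome 11 had 1.0 and 2.0. Medians were higher on chromosome 12, at 4.0 and 4.0, and on chromosome 13, at 4.0 and 4.5.

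The first ends of chromosomes 1, 2, 3 and 5 were less rich than that of chromosome 4. The first 5 Mb of chromosomes 1, 2, 3 and 5 had 6.20, 9.40, 7.0 and 11.2 SMC2 peaks per Mb, against 21.2 on chromosome 4. For CAP-H they had 3.60, 3.40, 4.80 and 3.8 peaks per Mb, against 17.4. The interval on chromosome 4 (17.4 to 25.6 for SMC2 and 13.9 to 21.5 for CAP-H) lay above the intervals of those 4 first ends, of which the highest upper bounds were 14.5 for SMC2 and 7.14 for CAP-H. Because the limit of 5 Mb was chosen on chromosome 4 after its positions were seen, these intervals describe the difference and do not test it. Ends of microchromosomes were not compared. The richest 1-Mb window of chromosome 11 held 48 SMC2 and 29 CAP-H peaks, against 58 and 34 on the short arm. At its other end chromosome 4 lay within the range of chromosomes 1, 2, 3 and 5. Its last 5 Mb had 15 SMC2 peaks, or 3.0 per Mb (1.68 to 4.95), and 9 CAP-H peaks, or 1.80 per Mb (0.823 to 3.42). The last 5 Mb of chromosomes 1, 2, 3 and 5 had 3.20, 1.0, 1.0 and 4.80 SMC2 peaks per Mb, and 2.60, 1.40, 0.80 and 6.0 CAP-H peaks per Mb.

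The balance of the subunits differed between some stretches of the chromosome, which were chosen after the positions were seen. In all, chromosome 4 had 1.19 SMC2 peaks per CAP-H peak (0.985 to 1.45), against 1.48 (1.43 to 1.54) over all sequences. It lay within the range of chromosomes 1, 2, 3 and 5, which had 1.24, 1.84, 1.03 and 1.24. Chromosomes 11 to 13 together had 1.31 (1.12 to 1.52). The short arm had 1.38 (1.08 to 1.77) and the rest 0.942 (0.687 to 1.29), so these intervals overlap. From 1 to 3 Mb there were 85 SMC2 and 54 CAP-H peaks, a ratio of 1.57 (1.11 to 2.26). From 3 to 5 Mb the order was turned, with 11 SMC2 and 26 CAP-H peaks, a ratio of 0.423 (0.189 to 0.886). From 16 to 20 Mb the ratio of SMC2 to CAP-H peaks was 3.17 (1.62 to 6.66). Beyond 20 Mb, the counts were nearly equal in both parts of the long arm: 45 SMC2 and 47 CAP-H peaks up to 55 Mb, and 36 and 39 after it.

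At the very tip of the short arm, the first 100 kb held 5 SMC2 and 3 CAP-H peaks within 43818 bp. The first peak of the SMC2 list ran from 2 to 6179 with a score of 102, and the first of the CAP-H list from 1 to 6095, so that they shared 6094 bp, the most of any pair on the chromosome. The SMC2 score is the authors' own value per peak, in a column with no header. Its form resembles the score MACS gives, which rises as a p-value falls, but no source used here says so; strong and weak are used here for high and low scores alone. The highest score, 3100, is shared by 14 peaks of the whole list and may be a ceiling. Scores are used here to rank and group peaks, as cut-offs, and in medians and quartiles. The peak of chromosome 4 that reached 3100 ran from 40150 to 43671 and met a CAP-H peak from 40513 to 43818. Between these sites lay SMC2 peaks from 15300 to 18133, from 19352 to 22882 and from 22953 to 26967, with scores of 175, 193 and 82.7. A CAP-H peak from 22937 to 24656 overlapped the last of these and lay 54 bp (0.054 kb) beyond the one before it.

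Inside the first 5 Mb, most peaks lay in clusters. Peaks of both lists were joined into a cluster where the gap between them was at most 20 kb, and 15 clusters held 5 peaks or more. Together these held 141 of the 443 peaks, or 31.8%. The first 5 Mb had 14 of the 15 clusters, the remainder of the short arm had 0, and the long arm had 1. The largest, from 1760418 to 1816027, held 15 SMC2 and 9 CAP-H peaks in 55.6 kb. The second, from 1930595 to 2022011, held 11 and 7 in 91.4 kb. The third, from 1843746 to 1884209, held 7 and 4. A pair of clusters with 10 peaks each followed, and in these CAP-H peaks were the more numerous: 4 SMC2 and 6 CAP-H peaks from 2394172 to 2421782, and 3 and 7 from 3525870 to 3559280. The cluster of the long arm lay from 49434813 to 49446722 and held 2 peaks of SMC2 and 3 of CAP-H.

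Neighbouring peaks of a list were close together there and far apart elsewhere. In the first 5 Mb the median gap between neighbours was 9.39 kb for SMC2 and 13.2 kb for CAP-H, and from 1 to 3 Mb it was 6.84 kb and 9.34 kb. Beyond 20 Mb it was 430 kb and 290 kb. Both stretches of the short arm were chosen as rich ones, so short gaps in them were fixed in advance and test nothing. On the short arm 54 of 276 peaks were alone, with no other peak of either list within 20 kb, and on the rest 89 of 167 were.

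The SMC2 peaks from 16 to 20 Mb held none of the strongest of the chromosome and were more widely spaced than those at the free end. Their scores ran no higher than 124 and had a median of 67.9, against 74.3 in the first 5 Mb and 65.7 beyond 20 Mb. The median gap between neighbours was 87.3 kb, against 9.39 kb in the first 5 Mb, and 4 of the 38 overlapped a CAP-H peak. Gaps largely restate the peak density by which both stretches were chosen, so they test nothing. The 3 with the highest scores ran from 17767880 to 17769536 (124), from 16547735 to 16548870 (111) and from 19177043 to 19180372 (110), and none of these 3 overlapped a CAP-H peak. The nearest CAP-H peaks lay 0.544 kb, 33.8 kb and 21.0 kb away. The second of these peaks belonged to a group of 4 SMC2 peaks in 10.6 kb, from 16545250 to 16555826, which held 0 CAP-H peaks.

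The boundary itself lay in a long stretch without CAP-H peaks, in which SMC2 peaks continued. The last SMC2 peak before 20 Mb ran from 19699937 to 19700899 and the next one from 20107357 to 20108133. The last CAP-H peak before 20 Mb ran from 19503425 to 19504379, and no other followed up to 23255863, a stretch of 3.75 Mb that held 10 SMC2 peaks.

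Beyond the boundary, peaks were scattered among long empty stretches. In 17 of the 70 windows of 1 Mb there was no peak of either list, whereas each of the 20 windows of the short arm had at least 1. The longest stretch without a peak of either list ran from 69133295 to 72355628, or 3.22 Mb. It was followed by 65893056 to 68618416 (2.73 Mb), 39906151 to 42472921 (2.57 Mb), 25807439 to 28316805 (2.51 Mb) and 75401591 to 77885322 (2.48 Mb). In all, 25 stretches of at least 1 Mb took up 43.0 Mb, or 47.8% of the chromosome. Of these, 21 were on the long arm, which makes up 77.8% of the length, and 4 on the short arm. All 4 lay from 5 to 16 Mb, a part with 12.2% of the length and with peak densities close to those beyond the boundary. These counts thus do not set the long arm apart from that inner part of the short arm. The longest on the short arm ran from 6537345 to 7951729 (1.41 Mb). Chromosomes 3 and 5 had longest stretches of 4.46 Mb and 2.41 Mb, so those of chromosome 4 were not outside the range of its neighbours. Whether an empty stretch lies in sequence that reads cannot reach was not tested.

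Each list alone left longer stretches open, some of them entered by the other subunit. The SMC2 list had no peak from 73318227 to 77886742 (4.57 Mb, with 2 CAP-H peaks inside), from 53364325 to 57730078 (4.37 Mb, with 7 CAP-H peaks) and from 69133295 to 72355628 (3.22 Mb, with 0). The CAP-H list had no peak from 68899514 to 75400271 (6.5 Mb, with 3 SMC2 peaks), from 60542586 to 64666553 (4.12 Mb, with 5) and in the stretch of 3.75 Mb at the boundary.

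The last SMC2 peak of the chromosome ran from 89990881 to 89992095, with a score of 50.7, and lay 765 kb beyond the last CAP-H peak, from 89224897 to 89226213. The end of this peak was itself taken as the length of the chromosome, so nothing is known here of the true last bases. Unlike the first SMC2 peak, this last one had no CAP-H partner.

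The next comparison asked how far the subunits shared their sites. On chromosome 4, 77 of 241 SMC2 peaks shared 1 bp or more with CAP-H, which is 32.0% (26.1 to 38.2), against 31.0% of the whole SMC2 list. Of the CAP-H peaks, 66 of 202 overlapped an SMC2 peak, or 32.7% (26.3 to 39.6), against 42.4% of the whole CAP-H list. Chromosome 3 had 24.1% (17.98 to 31.2) and 25.4% (19.1 to 32.7), and chromosome 5 had 31.3% (25.2 to 38.0) and 38.2% (30.9 to 45.8). The intervals of chromosome 4 overlap with those of both neighbours. In bases, the lists shared 109 kb, which is 36.4% of the 299 kb under SMC2 peaks and 29.6% of the 367 kb under CAP-H peaks.

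Sharing was more frequent at the free end of the short arm. There, 55 of 106 SMC2 peaks (51.9%, 42.0 to 61.7) and 46 of 87 CAP-H peaks (52.9%, 41.9 to 63.7) had a partner. Beyond 20 Mb, 15 of 81 SMC2 peaks (18.5%, 10.8 to 28.7) and 13 of 86 CAP-H peaks (15.1%, 8.30 to 24.5) had one. From 16 to 20 Mb, 4 of 38 SMC2 peaks (10.5%, 2.94 to 24.8) and 4 of 12 CAP-H peaks (33.3%, 9.92 to 65.1) had one. Overlap by position alone is more likely where peaks are dense: CAP-H peaks covered 3.85% of the first 5 Mb and 0.191% of the chromosome beyond 20 Mb. The part of this in the difference was not tested.

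**Figure D3:**
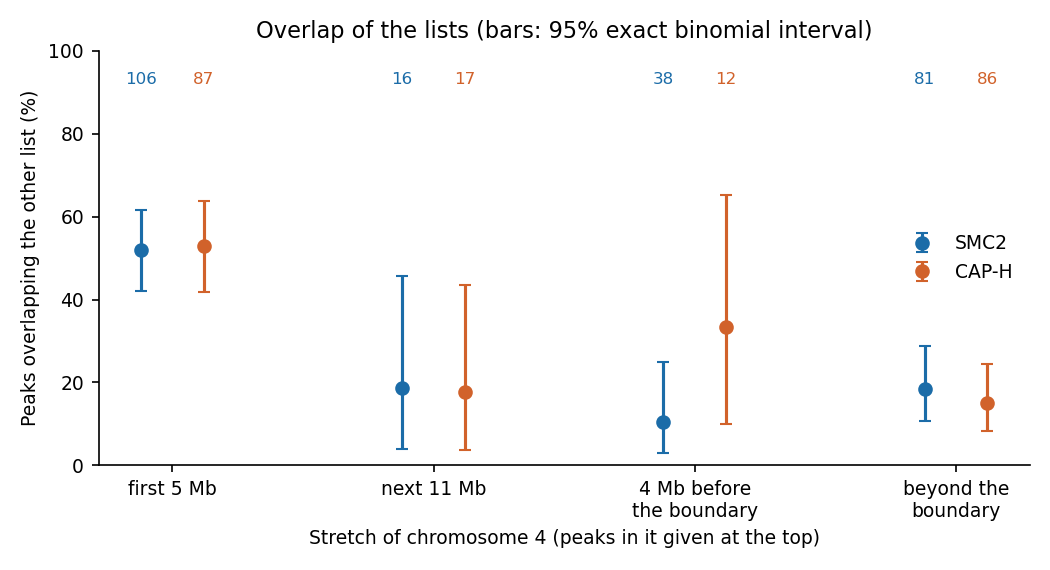
Percent of SMC2 and CAP-H peaks that overlap a peak of the other list by at least 1 bp, in 4 stretches of chromosome 4, with 95% exact binomial intervals and the number of peaks at the top. The shares are 51.9% and 52.9% in the first 5 Mb, and 18.5% and 15.1% beyond the boundary.

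There were 83 overlapping pairs, with centres a median of 615.5 bp apart. That a pair of peaks overlap already limits this distance. In 43 of the pairs each peak had no other partner. In these 43 the centres lay a median of 318.5 bp apart (quartiles 122.5 to 610 bp), with the CAP-H centre at the higher coordinate in 21 and at the lower in 22. In the other 40 the median was 1271 bp and the largest distance 5112 bp. The CAP-H peak was the wider in 26 of 43, and 13 of the SMC2 peaks lay wholly inside it. Of the 66 CAP-H peaks with a partner, 15 had more than 1: 14 had 2 and 1 had more. Of the 77 SMC2 peaks with a partner, 6 had more than 1. Some of these overlaps were slight, down to 6 bp. The widest CAP-H peak of the chromosome, 10.4 kb from 1802057 to 1812425, overlapped 4 SMC2 peaks, among them those with scores of 692 (1802937 to 1807986) and 438 (1810529 to 1813784). After the pair at the first bases, the widest overlaps were 5050 bp at the first of these, 4264 bp between SMC2 at 2005052 to 2010421 and CAP-H at 2006158 to 2011860, 3939 bp at the SMC2 peak from 1965912 to 1969850 and 3720 bp at that from 2405796 to 2410546.

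Strong and wide SMC2 peaks were shared more often than weak ones. The 77 shared peaks had a median score of 93.7 (quartiles 69.95 to 167) and the 164 others one of 62.0 (55.5 to 75.2). Beyond the first 5 Mb, where peaks were sparser, the medians were 84.95 for 22 shared peaks and 62.4 for 113 others. When the list was cut into 3 groups by score, 7 of 81 of the weakest (8.64%, 3.55 to 16.9985), 22 of 80 of the middle (27.5%, 18.1 to 38.6) and 48 of 80 of the strongest (60%, 48.4 to 70.8) were shared. Shared SMC2 peaks had a median width of 1263 bp and the others one of 891 bp. Cut into 3 groups by width instead, 7 of 81 of the narrowest SMC2 peaks, 21 of 80 of the middle group and 49 of 80 of the widest were shared. This rise was close to that by score. Shared CAP-H peaks had a median width of 1998 bp and the others one of 1301 bp. By width, 15 of 68 of the narrowest CAP-H peaks, 14 of 67 of the middle group and 37 of 67 of the widest were shared, so the rise lay in the widest group. A wider peak is more likely to overlap another by position alone. The dense first 5 Mb held 57.5% of the strongest SMC2 group, against 34.6% of the weakest. It held 55.2% of the widest CAP-H group, against 33.8% of the narrowest. The part of width and position in these differences was not tested.

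**Figure D4:**
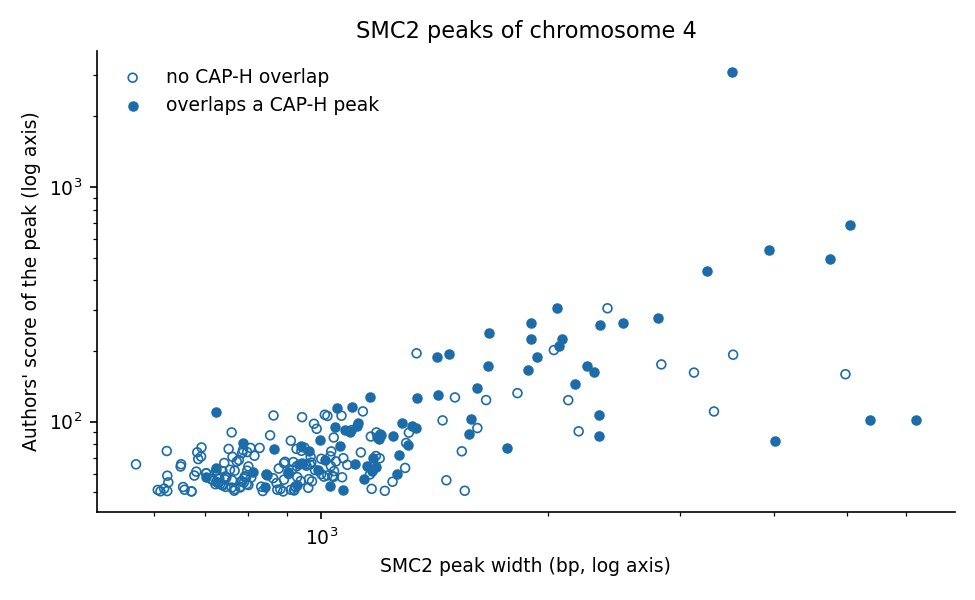
Width in bp and authors' score of the 241 SMC2 peaks of chromosome 4, on log axes, with filled points for those that overlap a CAP-H peak. The shared peaks have a median score of 93.7 and a median width of 1263 bp, against 62.0 and 891 bp for the others.

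The SMC2 peaks with the highest scores lay mostly at the free end of the short arm. Of the 16 with a score of at least 200, 15 were in the first 5 Mb and 14 overlapped a CAP-H peak. Of the 52 with at least 100, 36 were in the first 5 Mb, 9 were beyond 20 Mb and 33 overlapped a CAP-H peak. After the peak with 3100 and the pair named above came those from 1965912 to 1969850 (539) and from 2405796 to 2410546 (495). Peaks from 2146777 to 2148833 (304) and from 2143927 to 2146730 (277) lay under a single CAP-H peak, from 2143875 to 2149324. The peaks from 1761154 to 1763056 (264) and from 1780578 to 1783097 (263), which complete the 10 strongest, each lay wholly inside a CAP-H peak.

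The exception among the 10 strongest lay on the long arm, from 42472922 to 42475324, with a score of 304. It had no CAP-H peak within 268 kb and formed the far border of the empty stretch from 39906151. Another wide SMC2 peak without a partner lay 1 Mb further on, from 43488630 to 43493610 (4.98 kb, score 159), with the nearest CAP-H peak 734 kb away. A further one, from 61072952 to 61076083 (score 162), had none within 530 kb. Thus 3 of the 5 strongest SMC2 peaks beyond 20 Mb had no partner, as did 66 of all 81 SMC2 peaks there. The other 2 were those from 82407532 to 82409197 (172) and from 49438871 to 49440483 (139), and each lay wholly inside a CAP-H peak.

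Peaks of CAP-H were wider than those of SMC2 on this chromosome, with medians of 1393.5 bp (quartiles 976 to 2081) and 968 bp (788 to 1246). This was not particular to chromosome 4. The medians were 1238 and 895 bp on chromosome 3, 1400 and 1003 bp on chromosome 5, and 1391.5 and 1051.5 bp on chromosomes 11 to 13. Chromosome 16 had the opposite order, at 1442 and 1655 bp. On the short arm the medians were 1455.5 bp and 1012 bp, and on the rest 1318 bp and 890 bp. The 10 widest CAP-H peaks, from 4.98 to 10.4 kb, all overlapped an SMC2 peak, and 9 of them lay in the first 3 Mb. Besides those already named, these were 2401655 to 2409515 (7.86 kb), 1963492 to 1970297 (6.81 kb), 1461315 to 1467025, 1760418 to 1765416 and 1431833 to 1436816, and the exception on the long arm was 49434813 to 49441441 (6.63 kb). Some were covered only in part by SMC2 peaks: 17.3% of the peak from 1461315, 18.6% of that from 1431833 and 24.3% of that from 49434813. Of the 10 widest SMC2 peaks, 8 lay in the first 3 Mb and 7 had a partner. Width did not follow score throughout, since the widest SMC2 peaks after that at the first bases, 5.37 kb from 2005052 and 5.05 kb from 1802937, had scores of 102 and 692.

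Peaks with no overlap were often still near the other subunit in the first 5 Mb, and seldom so on the long arm. The 51 unshared SMC2 peaks of the first 5 Mb lay a median of 14.98 kb from the nearest CAP-H peak, and 21 of them lay within 10 kb. The 66 beyond 20 Mb lay a median of 221 kb away, with 5 within 10 kb and 48 at 100 kb or more. For unshared CAP-H peaks the medians were 12.9 kb (41 peaks) and 163 kb (73 peaks). Within 1 kb of a peak of the other list lay 11 of the 164 unshared SMC2 peaks and 13 of the 136 unshared CAP-H peaks. The density of the peaks was far higher in the first 5 Mb, and its part in these distances was not tested.

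**Figure D5:**
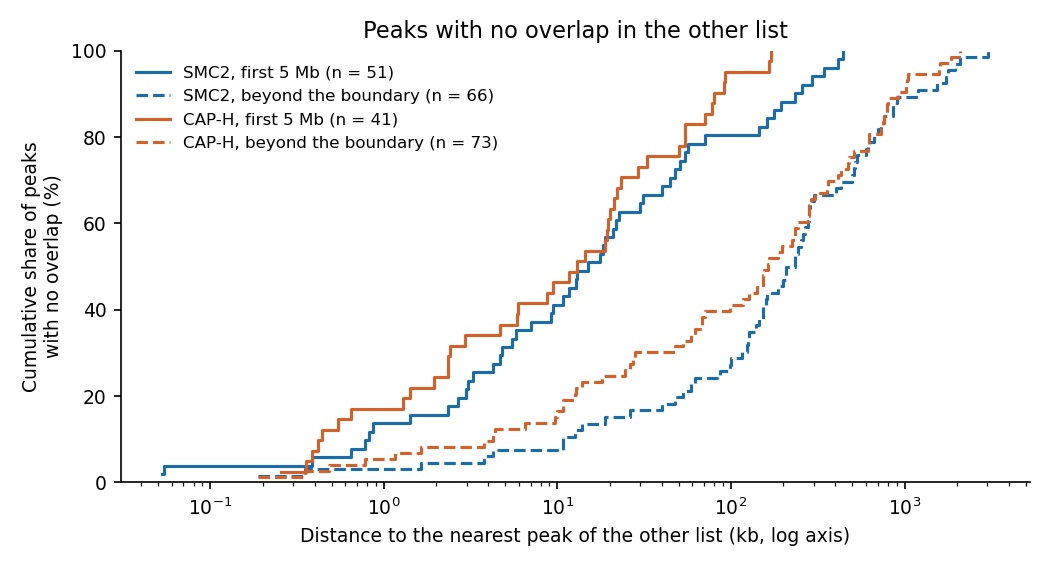
Cumulative percent of peaks with no overlap against their distance in kb (log axis) to the nearest peak of the other list, for the first 5 Mb (solid) and the chromosome beyond the arm boundary (dashed). The medians are 14.98 and 12.9 kb for SMC2 and CAP-H in the first 5 Mb, and 221 and 163 kb beyond the boundary.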

How the data were processed

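Per the labels, reads came from streptavidin pull-downs of tagged SMC2 and CAP-H in mitotic DT40 cells. Per the submitters' processing notes, BWA and build galGal4 were used; the peak names in the files are those MACS writes, but the sources used here give no version, control or threshold for it. Each deposited list covers 1 library. In the SMC2 list the authors deposited a score for each peak, with no header; the CAP-H list has none. The TSS profiles hold no value per chromosome and were not used. Read depth is unknown.

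Starts are counted from 0 in the files and printed counted from 1. Peaks were placed in windows and arms by their midpoint. Chromosome length was the highest coordinate in either list. Density intervals are exact Poisson, shares exact Clopper-Pearson, and ratios exact conditional, at 95%, and cover counting error only. The overlap, joining and interval steps were tested on simulated data. Python 3.11.15, numpy 2.4.6, pandas 2.3.3, scipy 1.17.1 and matplotlib 3.10.9 were used.

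The chromosome, the groupings and the rules were chosen with earlier results of these data known. Regions named were the 10 SMC2 peaks of highest score, the 10 widest peaks of each list, the 5 richest 1-Mb windows, 5 clusters and 5 empty stretches, 3 empty stretches of each list, first and last peaks, those beside the boundary and the 5 widest overlaps. Others were named after their values were seen. No genome or annotation of galGal4 was used, so no gene or sequence is given.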

Additional observations from a re-analysis of the deposited data

How the results depend on the processing

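Of 44 alternative values, 24 stayed within the interval of the reported value (counts within 1.5 times, correlations within 0.1), and none turned a density ratio below 1. The 20 that moved were as follows. Without the richest 1-Mb window of each arm the SMC2 ratio of short arm to rest was 5.01. Without the first 5 Mb, which, like each setting that leaves out a stretch of 4 or 5 Mb, was chosen after seeing the data, it was 3.11 for SMC2 and 1.57 for CAP-H, and without 16 to 20 Mb as well it was 1.26 (SMC2, 1.257; CAP-H, 1.258). The shared percentage of SMC2 and CAP-H peaks was 13.7 and 16.3 where at least 50% of both peaks had to overlap, and 16.3 and 17.4 without the first 5 Mb. It was 55.4 and 24.8 with the stronger 50% of SMC2 peaks, and 24.1 and 42.2 with the upper 50% of CAP-H peaks by width. With the midpoint rule the CAP-H share was 25.2. The chromosome had 101 SMC2 peaks in that stronger 50%, and 135 SMC2 and 115 CAP-H peaks without the first 5 Mb. In 500-kb windows 40.6% had no peak, against 18.9% in 1-Mb windows. The Pearson r of window counts was 0.699 without the richest window and 0.34 without the first 5. Each of these settings removes peaks or windows, tightens the overlap rule or shortens the window; no other cause was tested. No paired analysis was possible because each subunit has 1 library. The number of peaks limits the shares from 5 to 20 Mb most, and read depth is unknown.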
